A study of Mus musculus with 6 samples.

Results

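The Dlk1-Dio3 cluster is an imprinted domain of mouse chromosome 12, taken here as the genes Dlk1, Meg3, Rian, Mirg, Rtl1 and Dio3. Its members were the probe sets that the array annotation assigns to exactly 1 gene, that gene being 1 of these 6. This gave 19 of the 45101 probe sets on the array: 2 of Dlk1, 11 of Meg3, 4 of Rian and 2 of Mirg. These are 4 of 18194 genes with such a probe set. No probe set was assigned to Rtl1 or Dio3 alone, and both were not analysed here. Expression was measured in total RNA of mouse embryonic stem cells on Affymetrix arrays, with 3 samples of cells lacking both Gsk-3 genes (Gsk-3a-/-; Gsk-3b-/-, called DKO below) and 3 samples of wild-type cells of the line E14K. Gsk-3 is a serine/threonine kinase of insulin, PI3K and Wnt signalling. Both genotypes were kept on gelatin, feeder-free, in medium holding 1000 units/ml of leukaemia inhibitory factor and 15% serum, and 25 ng of RNA were amplified and biotin-labelled as cDNA. The labels do not name the parent line of the DKO cells or say how many clones they represent, so genotype and clone cannot be told apart. Whether replicates came from separate cultures is not stated either, so p-values here reflect only the spread among these 6 samples, possibly a technical one.

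In an imprinted domain, a gene is transcribed mainly from the copy inherited from 1 parent, according to DNA methylation laid down in the germ line at a control region. In the Dlk1-Dio3 cluster the control region lies between Dlk1 and Meg3 and is methylated on the paternal chromosome. The protein-coding genes Dlk1, Rtl1 and Dio3 are expressed from the paternal chromosome. The long noncoding RNAs Meg3 (also called Gtl2), Rian and Mirg are expressed from the maternal chromosome, and Rian and Mirg have been proposed to belong to 1 long transcription unit that starts at the Meg3 promoter. Their introns and flanks carry many small nucleolar RNAs and microRNAs. The level of Meg3 in mouse pluripotent stem cells is widely used as a sign of the state of this domain. The series title names the DNA methylation of imprinted loci, and the comparison of DKO with wild-type cells asks whether transcripts of such loci differ.

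The start regions of Dlk1, Meg3 and Rian are shown because the probe sets with the largest fitted differences of the cluster belong to these genes. On the log2 scale they were -1.65 for 1 of 7 tested Meg3 probe sets and -1.71 for 1 of 4 tested Rian probe sets. That of Dlk1 was 1.15 and did not pass. The brightest probe sets of Meg3 and Rian differed by -0.33 and -0.20 and did not pass. The sequences are from RefSeq (GRCm38.p6), plus strand, 5′ to 3′, from 250 bases before to 50 bases after the annotated start. Capitals mark CG dinucleotides, the sites at which mammalian DNA is methylated. The array annotation was used without coordinates.
Dlk1, chr12:109452573-109452872: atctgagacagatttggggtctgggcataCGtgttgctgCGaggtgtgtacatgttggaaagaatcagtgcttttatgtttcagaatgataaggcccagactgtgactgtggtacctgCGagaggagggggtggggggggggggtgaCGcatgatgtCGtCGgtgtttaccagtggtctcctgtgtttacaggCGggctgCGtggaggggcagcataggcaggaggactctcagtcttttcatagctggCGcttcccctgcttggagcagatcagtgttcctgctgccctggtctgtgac
Meg3, chr12:109540746-109541045: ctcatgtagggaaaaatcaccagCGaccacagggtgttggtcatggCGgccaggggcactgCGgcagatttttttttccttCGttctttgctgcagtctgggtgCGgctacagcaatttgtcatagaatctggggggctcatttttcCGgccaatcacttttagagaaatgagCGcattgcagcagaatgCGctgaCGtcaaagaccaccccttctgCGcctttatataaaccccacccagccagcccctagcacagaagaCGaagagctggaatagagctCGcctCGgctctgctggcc
Rian, chr12:109603695-109603994: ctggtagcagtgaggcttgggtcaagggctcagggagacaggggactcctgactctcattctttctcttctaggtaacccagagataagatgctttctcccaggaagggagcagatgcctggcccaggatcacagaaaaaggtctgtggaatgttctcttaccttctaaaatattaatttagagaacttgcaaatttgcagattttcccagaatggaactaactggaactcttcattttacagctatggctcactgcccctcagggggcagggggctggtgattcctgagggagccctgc
The Meg3 window held 13 CG dinucleotides, the Dlk1 window 9 and the Rian window 0, against a median of 7 over 32851 promoter windows of this length. A CG count as high as that of Meg3 was found in 37.9% of all windows. RefSeq gives Meg3 a second start, whose window held 1. The windows of Mirg and Dio3 held 10 and 25.

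5 motifs were searched on both strands of these windows. The cyclic AMP response element TGACGTCA stood at position -57 of the Meg3 window, counted from the annotated start, and was found in 1.79% of all windows. TGCCGC, the hexamer bound by the imprint-protecting protein Zfp57 when it is methylated, stood on the minus strand at -190, and 11.6% of all windows held it. TATAAA stood at -25 on the plus strand and at -29 on the minus strand, overlapping each other, with a share of 13.6% over all windows. The Tcf/Lef motif CTTTGAT, in 3.73% of all windows, and the E-box CACGTG, in 7.15%, were not among the letters of the Dlk1, Meg3, Rian, Mirg or Dio3 windows. The Dlk1 and Rian windows held none of the 5 motifs. A match describes the letters and is not evidence of binding.

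Between Dlk1 and Dio3 RefSeq lists 61 microRNA genes. The sequence records used here hold 58 microRNA hairpins of this interval, 54 of them on the plus strand, the strand of Meg3, Rian and Mirg. The same records hold 114 mature forms with 104 different seeds (bases 2 to 8, the part that pairs with targets). Not all of these forms come from the 58 hairpins. 3 hairpins lie inside the annotated bounds of Rian and 10 inside those of Mirg. A few of them are shown because the noncoding RNAs measured here are their neighbours or hosts, with the seed in capitals. The array table gave no value for a mature microRNA.
mmu-miR-770-3p: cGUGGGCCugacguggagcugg
mmu-miR-127-3p: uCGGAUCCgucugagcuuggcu
mmu-miR-370-3p: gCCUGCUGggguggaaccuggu
mmu-miR-410-3p: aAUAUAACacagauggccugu
mmu-miR-453: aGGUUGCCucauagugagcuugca
mmu-miR-496a-5p: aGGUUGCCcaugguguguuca
The hairpin of miR-770 lies in Meg3, that of miR-370 in Rian and those of miR-410, miR-453 and miR-496a in Mirg. The hairpin of miR-127 lies within the annotated bounds of Rtl1 on the opposite strand, and its microRNA is known to target the Rtl1 transcript. miR-453 and miR-496a-5p share the seed GGUUGCC, 1 of 9 seeds carried by 2 mature forms of different name in the interval. The form miR-3070-5p comes from 2 hairpins and was counted once for each among the 114.

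Values below are intensities as deposited, in whole numbers, and log2 intensities computed from them. A level is compared only within a probe set, since probe sets differ in binding strength. Probe sets entered the test when 3 or more of the 6 arrays had a log2 intensity of 4 or above (intensity 16). Of the 19 probe sets 13 were tested, 12 of which were at or above 16 on all 6 arrays. Differences are DKO minus wild-type on the log2 scale with the moderated standard error of limma, and adjusted p-values are limma's with Benjamini-Hochberg adjustment over 20841 tested probe sets. A probe set passed at an adjusted p under 0.05. Over all tested probe sets 3.24% passed, 1.93% lower and 1.31% higher in DKO cells. In the fit with the replicate number as a block, 9.57% passed, 5.26% lower and 4.31% higher. With the arrays of replicate 3 as a block 5.36% passed (3.09% lower, 2.26% higher), and over replicates 1 and 2 alone 2.11% (1.24% lower, 0.873% higher). An unadjusted p under 0.05 was found in 13% of all tested probe sets by limma on all 6 arrays without a block. Over replicates 1 and 2 alone it was found in 2590 of 20841.

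The targeted gene Gsk3a read 145, 135 and 66 on the DKO arrays, against 403, 238 and 239 on the wild-type arrays. The groups did not overlap, and the difference of -1.38 did not pass (adjusted p = 0.0942) but did with replicate numbers as blocks (0.00646) and with replicate 3 as a block (0.0223). By limma 0 of 5 tested probe sets of Gsk3b passed (0 at an unadjusted p under 0.05, 0 with the block), with differences of -0.71 to -0.02. Where these probe sets lie relative to the deleted parts was not known here. Replicate 3 stood apart from the other replicates in both genotypes: its spike-in controls averaged log2 intensities of 9.84 (DKO) and 10.22 (wild-type), against 1.72 to 1.82 in DKO and 1.68 to 1.83 in wild-type arrays of the other replicates. The log2 ratio of 3′ to 5′ signal over 3 control transcripts, which reads RNA length, was 1.83 to 2.44 log2 units in DKO and 1.64 to 2.30 in wild-type arrays, and higher in DKO in each same-numbered pair. Its part in the results was not tested.

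Among 12 tested probe sets of Meg3, Rian and Mirg, 2 fell and 0 rose, and the other 10 missed the threshold. The blocked fit called 4 lower, the fit with replicate 3 as a block 3 and the fit over replicates 1 and 2 none (0, with 5 at an unadjusted p under 0.05 by limma). The difference was below 0 in all 12, and in all 17 when the 5 untested ones are counted, against 52.2% of all tested probe sets. Of the 12, 7 had all 3 DKO arrays below all 3 wild-type arrays, against 9.17% of all tested probe sets. In 9 of the 12, DKO was lower in each of the 3 same-numbered pairs, against 22.4% of all tested probe sets. Probe sets of 1 gene read the same RNA and are not independent of each other. The median difference was -0.56 over the 12, beside -0.02 over all tested probe sets. Averaged over the 12 on each array, log2 intensity was 7.11, 6.79 and 6.49 in DKO, against 7.57, 7.70 and 7.33 in wild-type cells. DKO replicate 1 was the nearest to wild-type and DKO replicate 3 the farthest. The difference of these averages was -0.72 over the 7 Meg3 probe sets and -0.91 over the 4 of Rian. In bulk samples, fewer cells with a transcript and less RNA per cell cannot be told apart.

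**Figure D1:**
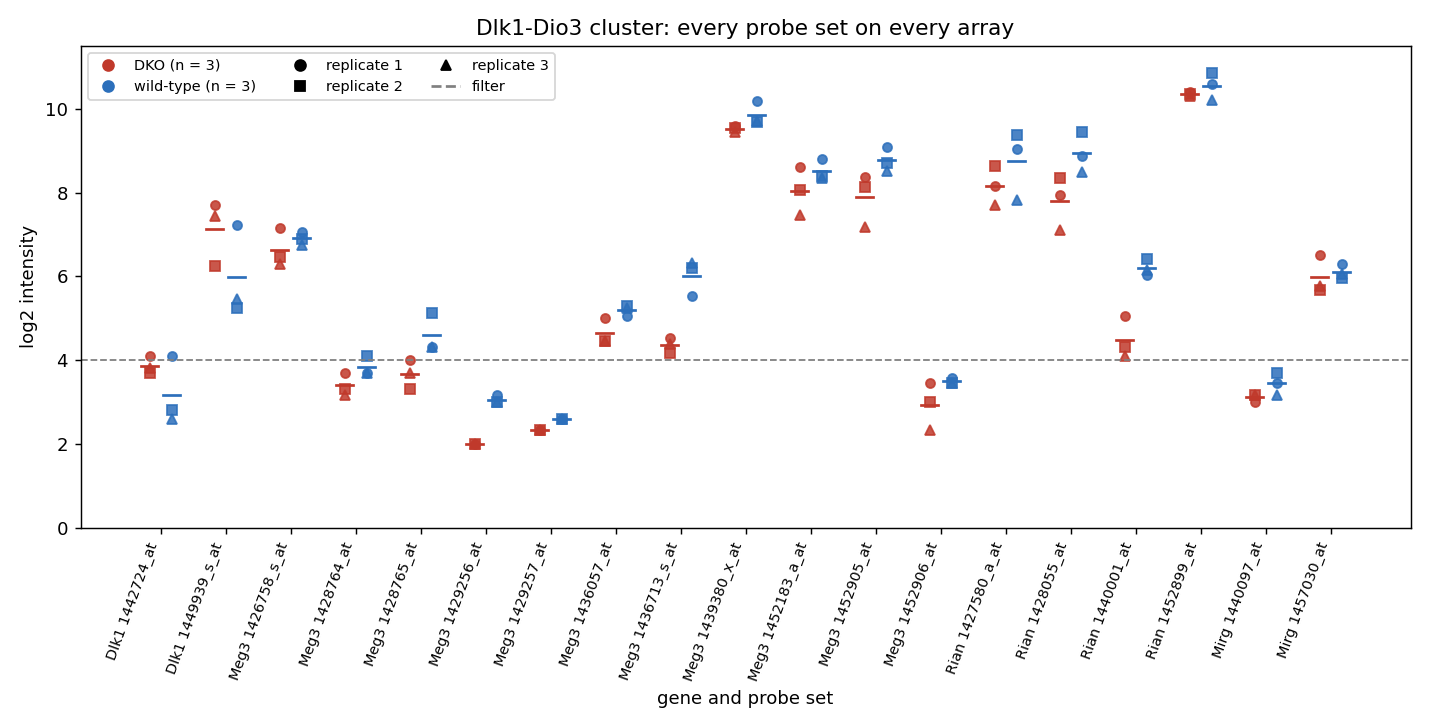
Log2 intensity (vertical axis) of all 19 probe sets of the cluster on each array, DKO in red left of wild-type in blue, with a marker shape per replicate number, bars at the group means and the filter at 4 as a dashed line. For Meg3 1436713_s_at and Rian 1440001_at all 3 DKO arrays lie well below all 3 wild-type arrays, and for Dlk1 1449939_s_at the arrays overlap.

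Meg3, the first noncoding RNA of the maternal transcripts, fell on 1 of its 7 tested probe sets. Probe set 1436713_s_at read 23, 18 and 21 on the DKO arrays, against 46, 73 and 80 on the wild-type arrays. Every DKO array was below every wild-type array, and the DKO values stood close to the filter. Mean log2 intensities were 4.36 ± 0.18 on DKO arrays and 6.01 ± 0.43 on wild-type arrays (SD, n = 3 each), a difference of -1.65 (SE 0.28, limma adjusted p = 0.0141) or 3.14-fold lower. The call was lost without DKO replicate 1 (adjusted p = 0.0649), DKO replicate 2 (0.0718) or wild-type replicate 2 (0.0738), over replicates 1 and 2 alone (0.0811), and with no filter on dim probe sets (0.086). The call was also lost in the linear model without moderation on all 6 arrays (adjusted p = 0.153). Leaving out 1 array at a time gave differences of -1.49 to -1.89.

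The other Meg3 probe sets differed by less. 1452905_at read 330, 282 and 145 on DKO arrays, against 548, 415 and 366 on wild-type arrays, so that the groups did not overlap. Its difference of -0.87 (SE 0.34) did not pass (adjusted p = 0.302) but did in the fit with replicate numbers as blocks (0.0401). The brightest probe set, 1439380_x_at, read 774, 743 and 701 on DKO arrays, against 1158, 828 and 837 on wild-type arrays. These groups did not overlap either, with a difference of -0.33 (95% interval -0.87 to 0.21, adjusted p = 0.683). A suffix of x or s marks probe sets whose probes can match more than 1 transcript, and this was not examined. 1428765_at read 16, 10 and 13 in DKO and 20, 35 and 20 in wild-type cells (difference -0.92, adjusted p = 0.205), and its DKO arrays lay at or under the filter. 1436057_at read 32, 22 and 22 in DKO and 33, 39 and 38 in wild-type cells (-0.55, adjusted p = 0.399). Both had separate groups, with DKO replicate 1 nearest to the wild-type arrays.

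For 2 Meg3 probe sets drawn from the same source record the arrays overlapped. 1452183_a_at read 389, 265 and 178 in DKO, against 444, 339 and 324 in wild-type cells (-0.47, adjusted p = 0.656). 1426758_s_at read 143, 88 and 78 in DKO, against 134, 119 and 108 in wild-type cells (-0.27, adjusted p = 0.817). DKO replicate 1 stood within the wild-type range for the first and above it for the second, and in both DKO replicate 3 was the lowest of all. The 4 untested Meg3 probe sets were dim. 1429256_at read 4 on all 3 DKO arrays, against 9, 8 and 8 on wild-type arrays, and 1429257_at read 5 on all 3 DKO arrays, against 6 on all 3 wild-type arrays. For 1429257_at the difference was 1 step of rounding, and both probe sets were under the filter on all arrays. 1428764_at read 13, 10 and 9 in DKO, against 13, 17 and 13 in wild-type cells, and 1452906_at read 11, 8 and 5 in DKO, against 12, 11 and 11 in wild-type cells. Both had 1 DKO array level with the lowest wild-type array.

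Rian, a long noncoding RNA that hosts small nucleolar RNAs, had 4 tested probe sets, of which 1 fell. Probe set 1440001_at read 33, 20 and 17 on DKO arrays, against 65, 85 and 71 on wild-type arrays. The groups were well apart, and DKO replicates 2 and 3 stood just above the filter. Log2 intensity averaged 4.48 ± 0.50 on DKO arrays and 6.19 ± 0.20 on wild-type arrays (SD, n = 3 each), a difference of -1.71 (SE 0.30, limma adjusted p = 0.0159) or 3.27-fold lower. The call was lost without DKO replicate 2 (adjusted p = 0.0767) or wild-type replicate 2 (0.0815), over replicates 1 and 2 alone (0.0849) or with no filter (0.111). In the linear model without moderation on all 6 arrays it was lost as well (adjusted p = 0.186).

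The next Rian probe set, 1428055_at, read 245, 325 and 137 in DKO, against 466, 703 and 357 in wild-type cells. All DKO arrays were below all wild-type arrays with differences of -0.93, -1.11 and -1.38 log2 units in the pairs numbered 1, 2 and 3. The difference of -1.14 (SE 0.38) did not pass (adjusted p = 0.194) but did with replicate numbers as blocks (0.0079) and with replicate 3 as a block (0.0352). 1427580_a_at read 285, 398 and 209 in DKO, against 526, 663 and 225 in wild-type cells. Here wild-type replicate 3 lay among the DKO arrays, and the difference of -0.58 did not pass (adjusted p = 0.689). The brightest, 1452899_at, read 1347, 1301 and 1265 in DKO, against 1542, 1851 and 1187 in wild-type cells. Its groups overlapped, with a difference of -0.20 (95% interval -0.76 to 0.36, adjusted p = 0.85).

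Mirg, the most distal of the 3 noncoding RNAs and a host of microRNAs, did not pass. Its tested probe set 1457030_at read 91, 51 and 55 in DKO, against 78, 62 and 67 in wild-type cells. DKO replicate 1 was the highest and DKO replicate 2 the lowest of the 6 arrays. The difference was -0.11 (95% interval -0.76 to 0.53, adjusted p = 0.938), and it was 0.04 without DKO replicate 2. The other probe set, 1440097_at, was under the filter on all arrays, with 8, 9 and 9 in DKO and 11, 13 and 9 in wild-type cells.

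**Figure D2:**
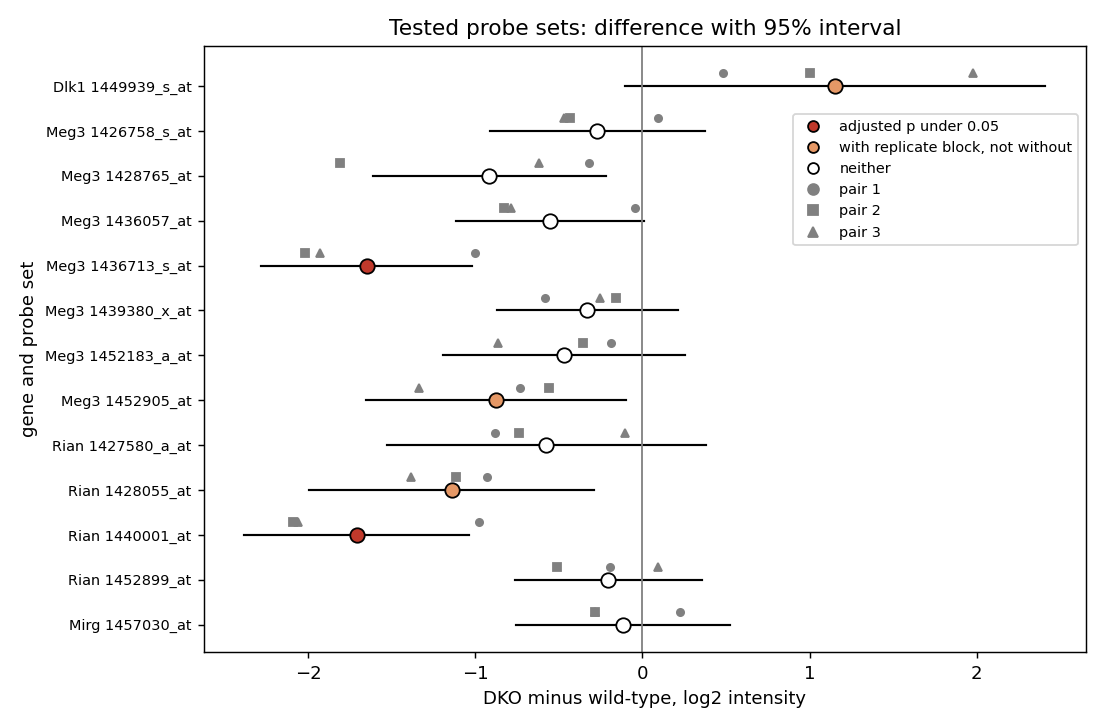
Difference in log2 intensity, DKO minus wild-type (horizontal axis), of the 13 tested probe sets with 95% intervals from limma, and in grey the differences of the 3 same-numbered pairs. Filled red points passed, orange points passed with the replicate number as a block and not without a block, and all points but that of Dlk1 lie below 0.

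Probe sets of 1 RNA were also set against the brightest probe set of that RNA within each array, which gives 9 comparisons for Meg3 and Rian. The 2 probe sets that fell are given in full, chosen for their difference. Log2 intensity of Meg3 1436713_s_at minus that of the brightest Meg3 probe set was -5.07, -5.37 and -5.06 in DKO, against -4.65, -3.50 and -3.39 in wild-type cells. For Rian 1440001_at minus the brightest Rian probe set it was -5.35, -6.02 and -6.22 in DKO, against -4.57, -4.44 and -4.06 in wild-type cells. In both the groups were separate, with differences of -1.32 and -1.51. The other Meg3 differences ran from -0.59 (1428765_at) to 0.06 (1426758_s_at), with -0.14 for 1452183_a_at, and the other Rian differences were -0.37 and -0.94. By a two-sided exact permutation test over the 6 arrays both gave p = 0.1 (0.3 after Benjamini-Hochberg adjustment over all 12 comparisons, Dlk1 included). Meg3 1452905_at (difference -0.54) and Rian 1428055_at (-0.94) also had separate groups and gave the same p. This is the smallest p that 3 against 3 arrays allow, so the test could not pass and unequal change is not shown by it. Which exons or transcript forms these probe sets read was not known here.

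Dlk1, a transmembrane protein of the Delta and Notch family that restrains fat cell differentiation, was higher in each pair but did not pass. Its tested probe set 1449939_s_at read 208, 76 and 173 on DKO arrays, against 149, 38 and 44 on wild-type arrays. Wild-type replicate 1 stood above DKO replicate 2, so the groups overlapped, while DKO exceeded wild-type by 0.48, 1.00 and 1.98 log2 units in the pairs numbered 1, 2 and 3. Means were 7.13 ± 0.77 on DKO arrays and 5.98 ± 1.08 on wild-type arrays (SD, n = 3 each), a difference of 1.15 (SE 0.56, 95% interval -0.11 to 2.41, limma adjusted p = 0.442). The blocked fit called it higher (adjusted p = 0.0327). All 3 pairs were higher in 19.4% of all tested probe sets, and the arrays were separate with DKO higher in 7.57%. Without wild-type replicate 1 the difference was 1.77 (adjusted p = 0.0728), and over replicates 1 and 2 it was 0.74 (0.735). The untested probe set 1442724_at read 17, 13 and 14 in DKO, against 17, 7 and 6 in wild-type cells, around and under the filter, and replicate 1 of each genotype was again the highest of its group.

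Dlk1 was also set against the noncoding RNAs within each array. Log2 Dlk1 minus log2 of the brightest Meg3 probe set was -1.90, -3.29 and -2.02 in DKO, against -2.96, -4.45 and -4.25 in wild-type cells, a difference of 1.48. Against the brightest Rian and Mirg probe sets the corresponding differences were 1.36 and 1.27. In each case DKO was above wild-type in every same-numbered pair, the groups overlapped, and the exact permutation test (two-sided) gave p = 0.2, adjusted p = 0.343 over the 12 comparisons.

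The genes on either side of the cluster were examined by the same fit. Of the 10 nearest protein-coding genes with a probe set before Dlk1, 5 were tested, and of the 10 nearest after Dio3, 8 were tested. By limma 0 of these 13 passed (1 on each side at an unadjusted p under 0.05, 0 by the linear model without moderation), where 4.13% of all genes passed by their brightest tested probe set. Each flanking gene was read on that probe set alone. Read in this way, Dlk1, Meg3, Rian and Mirg did not pass either (limma adjusted p = 0.442, 0.683, 0.85 and 0.938). A change confined to the cluster is therefore not shown by this comparison. Wdr25 and Wars, the nearest before Dlk1, differed by 0.03 and 0.15 (adjusted p = 0.983 and 0.912). Wars encodes tryptophanyl-tRNA synthetase. Ppp2r5c, a regulatory subunit of protein phosphatase PP2A, and Dync1h1, the dynein heavy chain, the nearest after Dio3, differed by -0.14 and -0.25 (adjusted p = 0.887 and 0.801). Slc25a47 did not pass (0.97, adjusted p = 0.147) but did with replicate numbers as blocks (0.0189). Differences ran from -0.53 to 0.97 before Dlk1 and from -0.59 to 0.35 after Dio3. Inside the interval, Dio3os, transcribed opposite to Dio3, read 4, 4 and 10 in DKO and 4, 3 and 8 in wild-type cells, under the filter on all arrays.

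**Figure D3:**
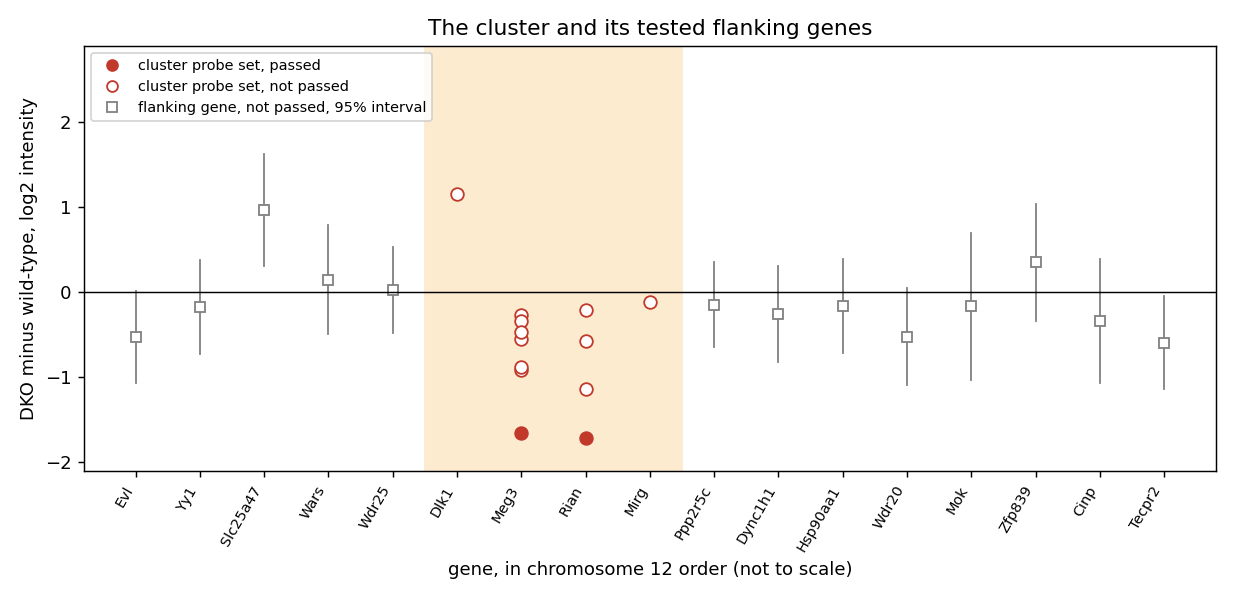
Difference in log2 intensity, DKO minus wild-type (vertical axis), for the tested probe sets of the cluster (circles, shaded) and for the brightest tested probe set of each tested flanking gene (squares with 95% intervals), in chromosome order and not to scale. The 2 filled circles are the probe sets of Meg3 and Rian that fell. By brightest tested probe set, no flanking gene and no gene of the cluster passed.

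Genes whose products set, read or keep imprints were taken as a list from general knowledge. Among its 23 tested genes 2 fell and 0 rose, and 21 missed the threshold, with a median of -0.17. By brightest tested probe set, 2.5% of all genes fell and 1.64% rose. The blocked fit called 3 lower, where 10.7% of all genes passed. Aff3, a chromatin-bound elongation factor reported in mouse embryonic stem cells to bind the control region of the Dlk1-Dio3 cluster, fell the most. It read 31, 44 and 37 on DKO arrays, against 168, 640 and 256 on wild-type arrays, a clear separation with a wide spread in wild-type cells. Its difference was -3.03 (SE 0.45, limma adjusted p = 0.0071), a call lost without DKO replicate 1 (0.0835) or with no filter (0.13). The linear model without moderation did not call Aff3 either (adjusted p = 0.206). Dnmt3a, a de novo DNA methyltransferase, read 806, 836 and 603 in DKO, against 2326, 3132 and 1791 in wild-type cells. It differed by -1.67 (SE 0.28, adjusted p = 0.0142), with 2 of 5 probe sets passing and all 5 below 0. This call was lost without DKO replicate 1 (0.0709), without wild-type replicate 2 (0.0687) or with no filter (0.0898). It was also lost in the linear model without moderation (adjusted p = 0.159).

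Dppa3, which protects methylation in the zygote, did not pass (-1.33, adjusted p = 0.171) but did with replicate numbers as blocks (0.00297) and with replicate 3 as a block (0.0359). Zfp57, the zinc-finger protein that recognises methylated control regions, differed by 0.21 (adjusted p = 0.836) and its partner Trim28 by 0.21 (0.906). The maintenance methyltransferase Dnmt1 and its cofactor Uhrf1 differed by 0.05 and -0.05 (0.975 and 0.973). The DNA demethylase Tet1 differed by -0.80 (0.361; 0.0508 with the block). Among the Polycomb genes Ezh2, Eed, Suz12 and Jarid2 the differences lay between -0.17 and 0.07, and 0 of the 4 passed.

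**Figure D4:**
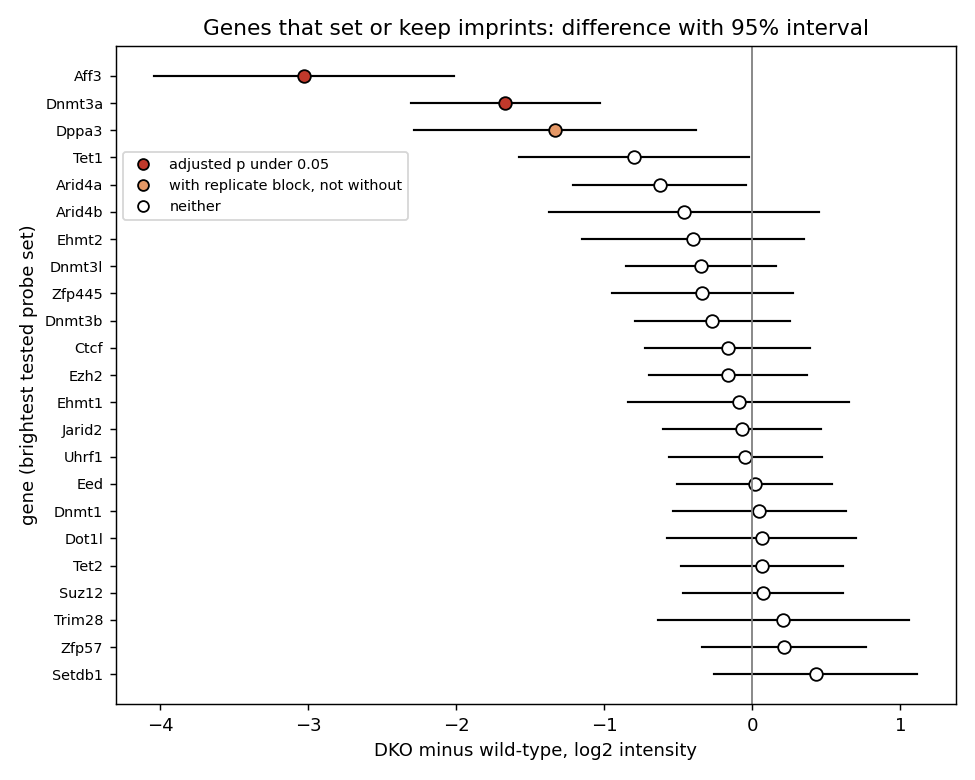
Difference in log2 intensity, DKO minus wild-type (horizontal axis), with 95% intervals from limma, for the brightest tested probe set of 23 genes that set, read or keep imprints. Aff3 and Dnmt3a (red) passed, Dppa3 (orange) passed with the replicate number as a block and not without a block, and the other 20 (white) passed in neither of these fits.

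Dlk1 is a relative of the Notch ligands, and Dio3 inactivates thyroid hormone, so 2 further lists were read. Of 16 tested Notch receptors, ligands, modulators and targets 0 passed by limma (6 at an unadjusted p under 0.05, 0 by the linear model without moderation). An unadjusted p under 0.05 was found in 13% of all tested probe sets. In the blocked fit 1 rose and 3 fell, where 10.7% of all genes passed. Hes1 rose, with 33, 47 and 49 in DKO, against 22, 21 and 27 in wild-type cells (adjusted p = 0.0331 with the block). Notch3 fell, with 146, 129 and 245 in DKO, against 315, 329 and 462 in wild-type cells (0.0082 with the block). The others that fell were Lfng and Jag2. Lfng, a glycosyltransferase that modifies Notch, read 8, 12 and 7 in DKO, against 64, 38 and 17 in wild-type cells, at least 2.2-fold lower. It entered the test through the wild-type arrays alone, and with values under 16 raised to 16 its difference of -1.11 did not pass (adjusted p = 0.316). Jag2, which read 12, 9 and 12 in DKO, against 32, 23 and 20 in wild-type cells, also entered through the wild-type arrays alone. Of 5 tested thyroid hormone genes 0 passed by limma (1 at an unadjusted p under 0.05), and Rxra, a nuclear receptor partner, had the largest difference at 1.04 (adjusted p = 0.0842, 0.0139 with the block). Of 14 tested genes of microRNA processing 0 passed by limma (1 at an unadjusted p under 0.05, 0 with the block), Tnrc6b differing most at -0.72 (adjusted p = 0.326).

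The labelled cell type was checked by markers. All 10 stem cell markers were tested, and 0 passed (1 at an unadjusted p under 0.05, 0 with the block). Their summed intensity was 22078 to 23499 on DKO arrays and 21237 to 24048 on wild-type arrays. Fibroblast markers, 13 of which had a probe set, summed to 1585 to 2397 in DKO and 1232 to 1894 in wild-type cells, with Col3a1, Lum and Postn under the filter on all 6 arrays. Pdgfra, also on the endoderm list, made up most of these sums on 5 of the 6 arrays. Of 8 tested, 0 passed by limma (2 at an unadjusted p under 0.05), with a median difference of 0.16. In the blocked fit 2 fell, Col1a1 (105, 73 and 76 in DKO, against 316, 135 and 221 in wild-type cells) and Acta2 (48, 14 and 21 in DKO, against 92, 53 and 149 in wild-type cells). Col1a2 (0.75), Pdgfra (0.62), Thy1 (0.44), Col5a1 (0.17) and Prrx1 (0.15) had differences above 0 without passing in either fit, and Twist1 differed by -0.06. Primitive endoderm markers (11) summed to 4340 to 7595 in DKO and 2128 to 6695 in wild-type cells. By array these sums were 6099, 4340 and 7595 in DKO, against 6695, 5787 and 2128 in wild-type cells. Of 10 tested endoderm markers 0 passed by limma (3 at an unadjusted p under 0.05, 0 with the block), with a median difference of 0.65. Trophoblast markers (9) summed to 1292 to 3405 in DKO and 3227 to 3885 in wild-type cells. Most of this was Tfap2c, with 1011, 1868 and 3069 in DKO, against 3208, 3108 and 3709 in wild-type cells (adjusted p = 0.354). The other tested marker, Eomes, ran the other way, with 235, 189 and 291 in DKO, against 135, 68 and 106 in wild-type cells (1.24, adjusted p = 0.0787), and rose in the blocked fit (0.00734). Neural markers (9) summed to 187 to 552 in DKO and 420 to 768 in wild-type cells, with Neurog1, Neurog2 and Pax3 under the filter throughout. So were Afp of the endoderm list and Elf5, Hand1, Plac1 and Tpbpa of the trophoblast list. Of 6 tested neural markers 1 fell, Pax6 (-3.47, limma adjusted p = 0.000826), and in the blocked fit 4 fell, Pax6, Nes, Map2 and Tubb3. Over all genes 4.13% passed, and 10.7% in the blocked fit. The part of such cells in the levels of Dlk1 and the noncoding RNAs was not tested.

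Genes whose pattern over the 6 arrays was most like that of each member were ranked by Pearson's r among 10492 genes, as a description of 6 points that share genotype and array. For Dlk1 they were Amz2 (r = 0.997), Prkcz (0.994) and Cyp2s1 (0.993). For the brightest Meg3 probe set they were Fbxo2 (0.997), Elavl3 (0.991), a neuronal RNA-binding protein, and Card10 (0.988). For Rian they were 1810014B01Rik (0.969), Slc10a1 (0.963) and Tbcel (0.962), and for Mirg Txndc9 (0.98), Mea1 (0.979) and Idnk (0.975). With so few arrays high values are common: r was at least 0.9 in 99 genes for Dlk1, 111 for Meg3, 16 for Rian and 71 for Mirg.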

How the data were processed

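The authors deposited 1 intensity per probe set and array, as whole numbers from 1 to 12861 on an unstated scale, treated here as linear; log2 was taken without a pseudocount. According to the submitters' processing notes the tools were GCRMA 2.14.1, limma 2.16.5, R 2.8.0 and GCOS, with no roles named. Genome build: not given in the sources used here. The lower quartile of each array was 4, so rounding makes dim values coarse. No detection flags were used, and precision is limited by the few arrays.

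Gene names came from the platform annotation, with symbols updated by gene identifier from the RefSeq table (GRCm38.p6), which matched 34754 of 34958 single-gene probe sets; 932 had several genes and were not named, and 9211 had none. Filtering (log2 of at least 4 on at least 3 arrays, regardless of genotype, without 64 array controls) left 20841 probe sets and 10496 genes, each gene read on its brightest tested probe set. DKO and wild-type arrays, grouped by sample title, were compared two-sided by lmFit and eBayes of limma 3.58.1 (R 4.3.3), tested on simulated data, with Benjamini-Hochberg adjustment. Same-numbered arrays deviated together (r of 0.427, 0.354 and 0.595 across probe sets), against -0.488 to 0.113 for differently numbered arrays. The numbers were therefore read as pairing the samples, although no label explains them. Because no label states a pairing, the main fit had no block, and an alternative fit had the replicate number as a block. At most 1.79% of values of the tested probe sets were equal on any 2 arrays. Alternatives were the blocks, filters, a pseudocount, a floor, scalings, unmoderated and robust fits and leaving out arrays.

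The named genes are every probe set of the members; among 10 flanking genes per side, the 2 nearest and any that passed; up to 4 passing genes of each list, or the 1 with the largest difference; and the 3 genes most like each member. Slc25a47, Dppa3, Zfp57, Trim28, Dnmt1, Uhrf1, Tet1, the Polycomb genes, Jag2, Notch3, Hes1, Dio3os and the marker genes were named after their values were seen. Members and lists were chosen with earlier results of these data known.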

Additional observations from a re-analysis of the deposited data

How the results depend on the processing

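Direction held for all tested probe sets of the cluster under every alternative run, except Mirg, whose difference was -0.38 to 0.043 over the fits that left out an array. Of 218 such comparisons with the main setting, 202 kept direction and side of the threshold, 11 lost a call, 4 gained one and 1 changed sign. In the fit with a replicate block (the pairing of same-numbered arrays), 5 cluster probe sets passed instead of 2, 4 of them noncoding, and 1995 instead of 675 probe sets overall; with replicate 3 as a block 1117 passed overall. Over replicates 1 and 2 limma called 440 of all tested probe sets and 0 in the cluster (5 at an unadjusted p under 0.05). On all 6 arrays the linear model without moderation called 31 of all tested probe sets and 0 in the cluster (3 at an unadjusted p under 0.05). Leaving out an array gave 290 to 604 overall (290 without DKO replicate 1, 381 without DKO replicate 2, 319 without wild-type replicate 2) and 0 to 2 in the cluster and among the noncoding RNAs. The count of 0 came without DKO replicate 2 (5 at an unadjusted p in the cluster) and without wild-type replicate 2 (2 at an unadjusted p). A filter at log2 6 gave 373 overall and 1 in the cluster, Rian 1440001_at, since it removed Meg3 1436713_s_at.

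With no filter 2 cluster probe sets passed, 0 of them shared with the main setting: Meg3 1429256_at and 1429257_at, whose rounded values were equal on all DKO arrays (adjusted p = 0.00809 and 0.0472). The share of calls higher in DKO was then 51.5%, against 40.4%. The flanking genes Wdr25 (-0.029 over replicates 1 and 2; -0.066 to 0.095 leaving out an array) and Wars (-0.032 to 0.34) changed sign around 0. The cause of other changes was not tested.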
